A study of Homo sapiens with 11 samples.

Results

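The 37 genes described here code for carriers that move amino acids, small peptides, taurine, creatine and betaine across cell membranes. They were taken by name from a fixed list, all 37 were found among the 58243 genes of the RNA-seq files, and they are set beside 19645 protein-coding genes that could be placed on the hg19 annotation. By textbook localisation, 9 act at the apical (luminal) membrane of the tubule, 5 at its basolateral (blood-facing) membrane, 13 occur in most cell types, and 10 are best known from other tissues. These classes were set with earlier results of these data known. The study grew HK2 cells under 1 condition, in serum-containing medium with antibiotics and a low share of DMSO, and no treatment or genotype was compared. HK2 is an established human line of immortalised proximal tubular epithelial cells, and every sample came from it. Expression was measured in 2 RNA-seq libraries, made from total RNA depleted of ribosomal RNA. The histone marks H3K4me3 (found at promoters), H3K27ac (found at active promoters and enhancers) and H3K27me3 (deposited by Polycomb complexes at silent genes) were mapped by ChIP-seq, with 2 replicates a mark. The labels do not say whether replicates were separate cultures, so the spread given here may be technical.

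In the proximal tubule, filtered amino acids and short peptides enter the cell from the lumen through sodium- or proton-coupled carriers in the brush border. They leave towards the blood through exchangers and facilitated carriers in the basolateral membrane. Several exchangers are heteromers, in which a light chain does the transport and a heavy chain, SLC3A1 at the brush border or SLC3A2 elsewhere, brings it to the membrane. Most cells also carry a basic set of transporters for uptake of neutral, cationic and sulfur-containing amino acids, and some of these sit on lysosomes.

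Expression is given as FPKM (fragments mapped to a transcript, scaled for its length and for the size of the library), summed over the transcripts of a gene. Because of the scaling for length, levels of different genes can be roughly compared. The sum still depends on which transcripts the reads were assigned to, as for SLC6A12 below. The aligned bases added up to 4.54 and 4.42 Gb in libraries 1 and 2. The peak lists held 29130 and 73942 peaks of H3K4me3, 57761 and 38639 of H3K27ac, and 45924 and 32746 of H3K27me3 in replicates 1 and 2. Replicate 2 of H3K4me3 therefore held the most peaks, and they were narrow, with a median width of 434 bp against 1194 bp in replicate 1. No peak height or score was used, so the read depth behind a peak is unknown. The label of the cells was checked against 13 markers of the proximal tubule. Only 3 reached FPKM 1 in both libraries, namely SLC5A2, PDZK1 and GGT1, and 5 were listed at 0, among them LRP2, SLC22A6, SLC22A8 and HNF4A. Over all protein-coding genes 58.8% reached this level and 19.6% were listed at 0. Of 4 transcription factors of the tubule lineage, 3 reached FPKM 1 in both libraries, PAX8 and LHX1 among them. PAX2 did not, at 0.372 and 0.400. None of 5 distal nephron markers reached FPKM 1 in both libraries.

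The stretches below lie before the principal transcription start site (TSS) of 5 transporters that stand for the promoter patterns found. Each runs 5' to 3' on the gene's strand from 250 to 51 bases before the TSS and was read from the GRCh37 (hg19) genome. SLC7A5 (chr16:87903164-87903363, minus strand) and SLC3A2 (chr11:62648118-62648317, plus strand) are expressed ubiquitous genes. SLC7A9 (chr19:33360724-33360923, minus strand) had no peak of any mark within 1 kb of a TSS. SLC6A20 (chr3:45838079-45838278, minus strand) and SLC15A1 (chr13:99404977-99405176, minus strand) carried H3K27me3. Capitals mark CG dinucleotides. No annotated exon overlaps these stretches.

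SLC7A5: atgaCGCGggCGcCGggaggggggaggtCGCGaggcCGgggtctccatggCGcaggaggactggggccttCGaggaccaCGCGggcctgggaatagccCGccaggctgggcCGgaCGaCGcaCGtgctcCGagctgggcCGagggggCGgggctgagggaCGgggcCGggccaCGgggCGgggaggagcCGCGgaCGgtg
SLC3A2: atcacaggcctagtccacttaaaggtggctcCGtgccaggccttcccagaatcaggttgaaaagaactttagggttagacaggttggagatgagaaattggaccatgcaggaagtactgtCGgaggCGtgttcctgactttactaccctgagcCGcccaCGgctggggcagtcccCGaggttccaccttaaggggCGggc
SLC7A9: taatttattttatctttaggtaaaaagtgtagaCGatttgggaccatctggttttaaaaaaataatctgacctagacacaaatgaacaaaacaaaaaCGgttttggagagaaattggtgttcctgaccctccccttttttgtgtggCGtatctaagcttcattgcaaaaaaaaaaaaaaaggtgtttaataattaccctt
SLC6A20: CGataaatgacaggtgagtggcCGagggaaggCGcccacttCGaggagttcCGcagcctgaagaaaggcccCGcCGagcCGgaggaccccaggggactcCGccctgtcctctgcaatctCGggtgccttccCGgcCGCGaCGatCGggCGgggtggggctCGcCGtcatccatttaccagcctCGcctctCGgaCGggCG
SLC15A1: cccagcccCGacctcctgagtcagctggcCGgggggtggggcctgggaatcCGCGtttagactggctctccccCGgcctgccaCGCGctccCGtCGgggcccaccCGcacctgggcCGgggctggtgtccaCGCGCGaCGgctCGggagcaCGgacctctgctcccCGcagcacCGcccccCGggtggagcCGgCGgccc

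The printed stretch of SLC7A5 holds 26 CG dinucleotides, and those of SLC6A20 and SLC15A1 hold 22 each. SLC3A2 has 7 and SLC7A9 has 3. High CpG content is thus seen in the expressed SLC7A5 and in the H3K27me3-marked SLC6A20 and SLC15A1 alike.

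The apical transporters were mostly silent in HK2 cells. Of the 9 genes, 1 reached FPKM 1 in both libraries, where 58.8% of all protein-coding genes did, and 4 were listed at 0 in both libraries, where 19.6% of all protein-coding genes were. The expressed gene was SLC1A1, which takes up glutamate, aspartate and cystine. Its FPKM was 3.02 and 3.17 in libraries 1 and 2, or 3.10 ± 0.110 (SD, n = 2), close to the median of all protein-coding genes. That median was 3.24 in library 1 and 3.36 in library 2.

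SLC6A19, the main sodium-coupled carrier of neutral amino acids in the brush border and the gene of Hartnup disorder, was listed at 0 in both libraries. So were its neighbour SLC6A18, a related carrier, SLC15A1, the low-affinity peptide carrier, and SLC36A2, a proton-coupled carrier of proline and glycine. At this depth 3 reads of 150 bases over the longest transcript would give FPKM values between 0.0153 and 0.0374 for these 4 genes in library 1, and between 0.0158 and 0.0384 in library 2. Lower levels would rest on fewer than 3 such reads, and this limit covers counting error only.

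SLC3A1 and SLC7A9 form the cystine and dibasic amino acid exchanger that is defective in cystinuria. SLC3A1 had FPKM values of 0.176 and 0.110, from 2332 and 1811 aligned bases. SLC7A9 had 0.0150 and 0.0296, from 150 and 288 aligned bases, which is under the level of 3 reads. Both chains of this exchanger were therefore far below FPKM 1 in each library. SLC6A20, a carrier of proline and other imino acids, had 0.0477 and 0.0902. SLC15A2, the high-affinity peptide carrier, had 0.536 and 0.341, and the transcript with the largest FPKM was not the same in the libraries.

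The basolateral class was mixed. SLC43A2, a facilitated carrier of branched-chain and aromatic amino acids, was highest, with FPKM values of 5.17 and 5.41, or 5.29 ± 0.172 (SD, n = 2). SLC7A7, the light chain that exports dibasic amino acids and is mutated in lysinuric protein intolerance, had 1.54 and 1.26. These were the 2 of 5 genes at FPKM 1 or more in both libraries. SLC6A12, a carrier of betaine and GABA, had 1.04 and 0.221, so it passed this level in library 1 only, and its FPKM values differed 4.71-fold. Its aligned bases, 5814 and 3924, were closer, and the transcript with the largest FPKM was not the same in the libraries. SLC16A10, which carries aromatic amino acids, had 0.510 and 0.315. SLC7A8, the light chain for neutral amino acids on the basolateral side, had 0.111 and 0.0500, the lowest of the class in both libraries.

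All 13 ubiquitous transporters reached FPKM 1 in both libraries. SLC38A2, the sodium-coupled neutral amino acid carrier that cells raise when amino acids run short, was highest of all 37 genes. Its FPKM was 100.4 and 107, or 104 ± 5.01 (SD, n = 2), above 97.6% of protein-coding genes. The next were SLC3A2, the heavy chain of the ubiquitous heteromers, with 40.3 and 43.5, and SLC6A8, the creatine carrier, with 41.2 and 40.0. The ranges of SLC3A2 and SLC6A8 over the libraries overlap, so their order was not resolved.

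SLC7A5, the light chain that brings in leucine and other large neutral amino acids, had FPKM values of 31.2 and 29.7. SLC38A1, a glutamine carrier, had 21.1 and 24.1, and SLC7A1, the main carrier of arginine and lysine, had 19.9 and 19.8. SLC1A4, which exchanges alanine, serine and cysteine, had 12.5 and 12.8. These 4 genes keep the same order in each library. SLC6A6, the taurine carrier, had 12.9 and 30.3, and its range spans those of SLC7A5, SLC38A1 and SLC7A1 in part or whole.

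SLC7A6, a light chain that exchanges dibasic for neutral amino acids, had 11.1 and 10.2. The lysosomal carriers were lower. SLC38A9, which signals lysosomal arginine to the growth regulator mTORC1, had 8.47 and 8.71, and SLC38A7, which exports glutamine and asparagine from lysosomes, had 7.63 and 7.56. SLC36A1, a proton-coupled carrier found on lysosomes, had 3.94 and 4.18, and its relative SLC36A4 had 3.33 and 3.07. The range of the ubiquitous class thus ran from SLC36A4, near the median of all protein-coding genes, to SLC38A2.

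The 6 light chains that can pair with SLC3A2 (SLC7A5, SLC7A6, SLC7A7, SLC7A8, SLC7A10 and SLC7A11) summed to FPKM 46.4 and 44.2, which is 1.15 and 1.02 times the FPKM of SLC3A2 itself. SLC7A5 made up most of that sum. The FPKM of SLC3A2 was spread over 23 annotated transcripts, and the largest held 31.5% and 30.3% of it.

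Of the 10 transporters best known from other tissues, 3 reached FPKM 1 in both libraries. SLC6A15, a neutral amino acid carrier of brain, was highest with 5.10 and 6.18, or 5.64 ± 0.765 (SD, n = 2). SLC38A5, a carrier of glutamine and asparagine, had 4.02 and 3.19. SLC1A3, a glutamate carrier of glia, had 2.36 and 1.36. The other 7 were lower in at least 1 library.

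SLC7A2, a carrier of cationic amino acids, had 0.781 and 1.10, and SLC6A9, a glycine carrier, had 0.695 and 0.549. SLC43A1, a relative of SLC43A2, had 0.161 and 0.235, and SLC7A10, a light chain for small neutral amino acids, had 0.176 and 0.0558. SLC38A4, best known from liver, had 0.0113 and 0.0143, under the level of 3 reads. SLC1A2, the main glutamate carrier of astrocytes, and SLC7A3, a cationic amino acid carrier, were listed at 0, where 3 reads would give 0.00678 and 0.0355 in library 1.

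Comparing the classes, the median FPKM of the apical genes was 0.0150 and 0.0296 in libraries 1 and 2, and that of the ubiquitous genes was 12.9 and 19.8. On the log2(FPKM + 1) scale, the ubiquitous median was higher by 3.78 in library 1 and by 4.33 in library 2, a difference of 4.06 ± 0.39 (SD, n = 2). The classes touched, since the range of SLC1A1 over the libraries overlapped that of SLC36A4.

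**Figure D1:**
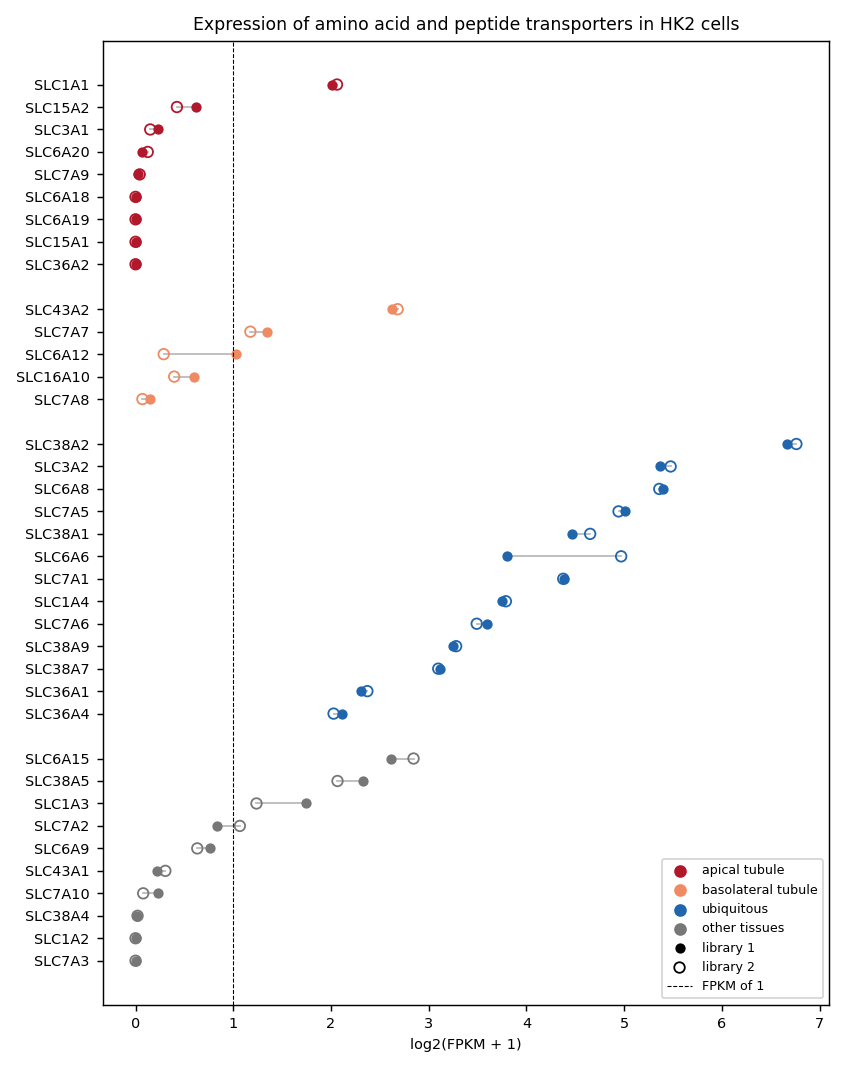
Expression of the 37 transporters as log2(FPKM + 1), with filled points for library 1, open points for library 2, and genes grouped by class. All 13 ubiquitous genes lie to the right of the dashed line at FPKM 1, while SLC1A1 is the only apical gene that does, and SLC6A6 and SLC6A12 have widely separated points.

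Promoter marks were scored as a peak within 1 kb of any annotated TSS of the gene. H3K4me3 was present in both replicates at 27 of the 37 genes, where the share over protein-coding genes was 70.3%. It was present at 13 of 13 ubiquitous genes and 5 of 5 basolateral genes, at 7 of 10 genes of other tissues, and at 2 of 9 apical genes, SLC1A1 and SLC6A20. H3K27ac was present in both replicates at 17 of 37 genes, against 55.0% of protein-coding genes. These were 12 of 13 ubiquitous genes, 2 of 5 basolateral genes, 2 of 10 genes of other tissues (SLC1A3 and SLC6A15) and 1 of 9 apical genes, SLC3A1.

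H3K27me3 was present in both replicates at 12 of the 37 genes, or 32.4%, against 11.4% of protein-coding genes, and the same 12 genes were found in each replicate alone. They were the apical SLC6A18, SLC6A19, SLC6A20 and SLC15A1, the basolateral SLC7A8 and SLC16A10, and 6 of 10 genes of other tissues. No ubiquitous gene carried it in either replicate. None of the 19 genes at FPKM 1 or more in both libraries had it, against 2.92% of such protein-coding genes. Of the other 18 genes 12 had it, or 66.7%, against 23.5%. H3K4me3 was present in both replicates at 9 of these 18, against 31.7%.

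The count of apical genes with H3K4me3 rested on the replicates taken. It was 3 of 9 in replicate 1, 6 of 9 in replicate 2 and 7 of 9 in either, while all 13 ubiquitous genes had the mark in each. The count in replicate 2 includes SLC15A2, whose peak of 325 bp lay 43810 bp from its principal TSS. Over all members, H3K4me3 was found at 29 genes in replicate 1, 32 in replicate 2 and 34 in either, against 71.9%, 78.0% and 79.6% of protein-coding genes. H3K27ac was found at 22, 17 and 22 genes, against 67.5%, 55.1% and 67.6%. H3K27me3 was found at 12, 12 and 12 genes, against 14.5%, 13.0% and 16.2%.

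The combination of H3K4me3 and H3K27ac in both replicates with no H3K27me3 in either was found at 16 of 37 genes, against 51.4% of protein-coding genes. Among the ubiquitous genes it was missing only from SLC36A1, whose H3K27ac peak of 643 bp was called in replicate 1 alone. H3K4me3 together with H3K27me3, each in both replicates, was found at 8 genes, or 21.6%, against 7.02%. They were SLC6A20, SLC7A8, SLC16A10, SLC1A2, SLC6A9, SLC7A2, SLC7A10 and SLC43A1, all under FPKM 1 in at least 1 library. At SLC7A8 the H3K4me3 peaks of the replicates mark different start sites, since that of replicate 2, 283 bp wide, lay 29032 bp from the principal TSS, where the H3K27me3 was found. No peak of any mark was found within 1 kb of a TSS at SLC7A9, SLC36A2 and SLC7A3, against 15.1% of protein-coding genes. Inside SLC7A9 but away from its start sites, H3K4me3 had 2 and 1 peaks and H3K27ac 1 and 1 in replicates 1 and 2.

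At the neutral amino acid carrier SLC38A1, H3K4me3 and H3K27ac covered 100% of the 1 kb on either side of the principal TSS in all 4 lists. At its relative SLC38A2, H3K4me3 covered 100% and 97.6% and H3K27ac 100% and 78.0%. The medians over the ubiquitous class were 92.0% and 66.5% for H3K4me3 and 82.9% and 48.4% for H3K27ac, so replicate 2 covered less for both marks.

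SLC16A10 held the broadest coincidence of opposed marks, with H3K4me3 on 78.5% and 68.8% of the window and H3K27me3 on 100% in both replicates. SLC6A20 had H3K4me3 on 31.1% and 42.8% and H3K27me3 on 100% and 91.2%. At SLC7A2, H3K4me3 covered 84.6% and 57.9%, and a small H3K27me3 peak of 659 and 614 bp lay just after the TSS. Whether both marks sit on the same chromosomes or in different cells cannot be told apart from these lists.

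At SLC6A18, SLC6A19 and SLC15A1, H3K4me3 was called in replicate 2 alone, with peaks of 273 to 777 bp beside or within the H3K27me3 domain. In replicate 1 the nearest H3K4me3 peak was at least 69406 bp away from these 3 start sites. The H3K4me3 calls at these genes therefore depend on the replicate with the larger and narrower peak list.

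**Figure D2:**
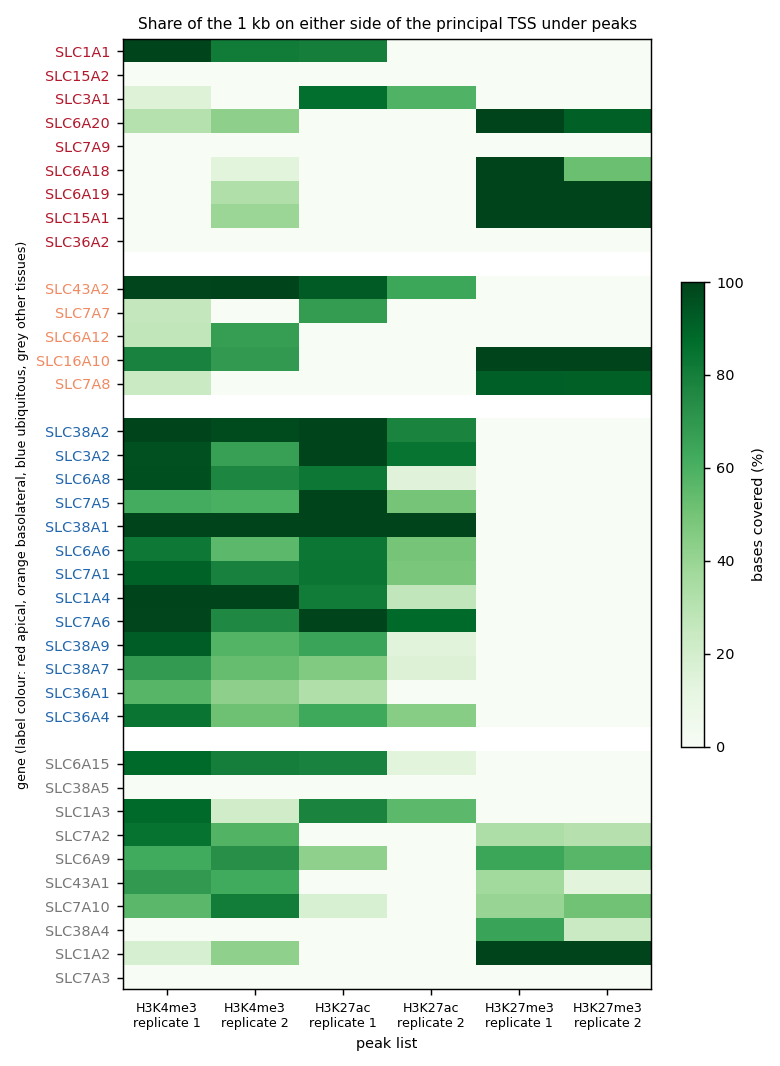
Share of bases under peaks (%) in the 1 kb on either side of the principal TSS, for each of the 37 genes (rows) and 6 peak lists (columns). The 13 ubiquitous genes are dark for H3K4me3 and empty for H3K27me3, and SLC6A18, SLC6A19, SLC6A20 and SLC15A1 show the opposite for H3K27me3.

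SLC3A1 (chr2:44502597-44548633, plus strand) did not follow the other apical genes. A H3K27ac peak of 4316 bp in replicate 1 and 2053 bp in replicate 2 lay over its principal TSS, covering 86.3% and 58.7% of the window. A further H3K27ac peak of 7160 bp, within 1 kb of another of its start sites, lay 10609 bp downstream in replicate 1. Inside the gene but away from all its start sites, H3K27ac had 1 and 2 peaks in replicates 1 and 2. H3K4me3 was called in replicate 1 alone, as a peak of 377 bp that began 689 bp from the TSS. It was the sole gene among the 18 under FPKM 1 in a library with H3K27ac in both replicates, against 12.9% of such protein-coding genes. SLC3A1 overlaps PREPL on the other strand, with an FPKM of 6.80 and 7.33, and the strand setting of the RNA-seq is not given in the sources used here. Reads from overlapping genes may thus be shared, as also for SLC7A6 with SLC7A6OS (FPKM 7.80 and 7.08) and SLC6A9 with CCDC24 (2.14 and 2.27).

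SLC7A7 has many annotated start sites. Its principal TSS carried peaks of H3K4me3 (523 bp) and H3K27ac (1367 bp) in replicate 1 alone. The peaks found in both replicates lay about the more upstream start sites, of which 1 is 59 bp from a TSS of MRPL52, a mitochondrial ribosomal gene on the other strand with an FPKM of 29.8 and 28.9. The marks at that shared start cannot be assigned to SLC7A7 or MRPL52. The other peaks of both replicates began 5331 to 8889 bp from the principal TSS, away from that start. At SLC6A8 a TSS of PNCK lies at 131 bp on the other strand, with an FPKM of 0.228 and 0.501.

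The principal promoters also differed in CpG content, measured as the observed number of CpG over that expected from the C and G content of the 250 bases. This ratio was at least 0.6 in 25 of 37 genes, against 65.5% of protein-coding genes, and in 12 of 13 ubiquitous but 4 of 9 apical genes. The median was 0.815 in the ubiquitous class, 0.435 in the apical class and 0.751 over all protein-coding genes. SLC3A2, at 0.521, was the ubiquitous exception.

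Among genes under FPKM 1 in a library, H3K27me3 in both replicates was found at 9 of 10 genes with a ratio of at least 0.6, against 43.3% of such protein-coding genes. SLC7A3 was the exception. Of the 8 genes with a lower ratio 3 carried it, SLC6A18, SLC6A9 and SLC7A10, against 12.8%. The silent apical genes thus fell into a CpG-rich set with H3K27me3 (SLC6A19, SLC6A20 and SLC15A1) and a CpG-poor set mostly without it (SLC3A1, SLC7A9, SLC15A2 and SLC36A2), with SLC6A18 as a CpG-poor gene that had it.

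**Figure D3:**
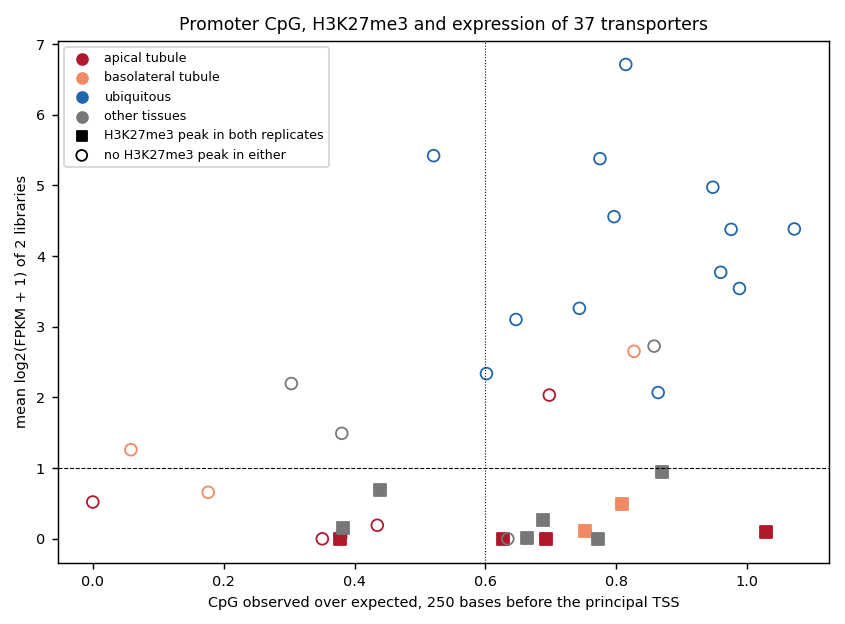
CpG observed over expected in the 250 bases before the principal TSS against the mean log2(FPKM + 1) of 2 libraries, with colours for the class and filled squares for genes with H3K27me3 in both replicates. All 12 squares lie below the dashed line at FPKM 1, and 9 of them lie to the right of the dotted line at a ratio of 0.6.

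Neighbouring transporters were compared at 2 loci. SLC6A19 (chr5:1201710-1225226) and SLC6A18 (chr5:1225496-1246304) lie head to tail with a gap of 269 bp, and no H3K27ac peak lay within 20 kb of them. A domain of H3K27me3 of 9814 and 7443 bp covered the start of SLC6A19, and a second of 4131 and 2465 bp covered the end of SLC6A19 and the start of SLC6A18. H3K27me3 covered 37.7% and 35.9% of the body of SLC6A19. Over the body of SLC6A18 it covered 7.14% and 0.202%, so the mark at SLC6A18 lay mostly before its start.

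SLC36A2 (chr5:150694533-150727151, minus strand) and SLC36A1 (chr5:150816607-150871940, plus strand) point away from each other with a gap of 89.5 kb. SLC36A1 carried H3K4me3 of 1276 and 853 bp at its TSS. SLC36A2 had no peak within 1 kb, and its nearest H3K27me3 peak lay 2457 and 1210 bp from the TSS, just outside the window. On chromosome 12, SLC38A1 and SLC38A2, both expressed, lie 88.2 kb apart, and SLC38A4, with H3K27me3, lies 392 kb beyond SLC38A2.

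**Figure D4:**
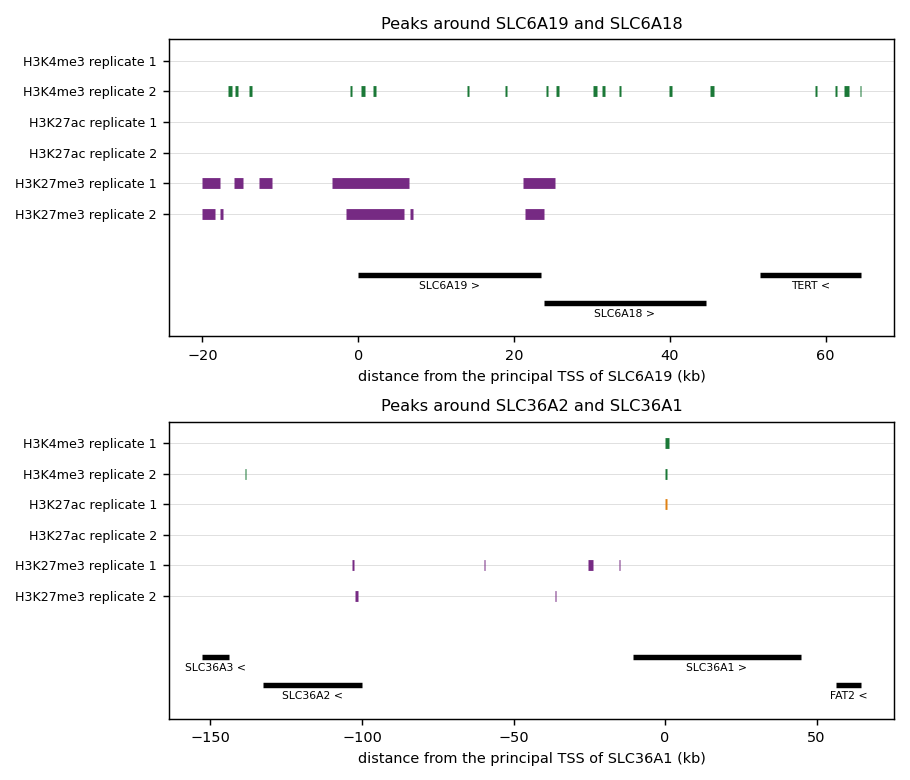
Peaks of each replicate (bars) and protein-coding genes (black, with the direction of transcription) around 2 pairs of neighbouring transporters, in kb from the principal TSS of SLC6A19 or SLC36A1. H3K27me3 blocks cover both starts in the upper panel, with H3K4me3 in replicate 2 alone, and in the lower panel H3K4me3 of both replicates is at SLC36A1.

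In summed FPKM the libraries agreed closely for most expressed members. Of the 19 genes whose mean reached FPKM 1, 2 differed by over 1.5-fold between the libraries, SLC6A6 and SLC1A3, against 5.93% of protein-coding genes. For SLC6A6 the difference lay mostly in the last exon. Its last exon, 4483 bp long, had 4.82 reads per base in library 1 and 155 in library 2, while the median of its other exons was 93.3 and 125. Aligned bases in the last exon differed 32.2-fold, and those in all other exons 1.15-fold.

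SLC7A2 showed the same form, with 10.0-fold more bases in the last exon in library 2 and 1.12-fold more in the others. A last exon over 3-fold apart with the other exons within 1.5-fold was found at 2 of 19 genes with at least 10000 aligned bases outside the last exon, SLC6A6 and SLC7A2, against 5.72% of such protein-coding genes. This measure was chosen after the values of SLC6A6 were seen. SLC1A3 differed in both parts, with 15.0-fold more bases in the last exon and 1.90-fold more in the others in library 1. SLC7A6, though close in FPKM, had 2.06-fold more bases in its last exon in library 1. Its other exons had 1.05-fold more in library 2. GRIP2, on the other strand, overlaps SLC6A6 by 243 bp and was listed at 0 in both libraries.

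**Figure D5:**
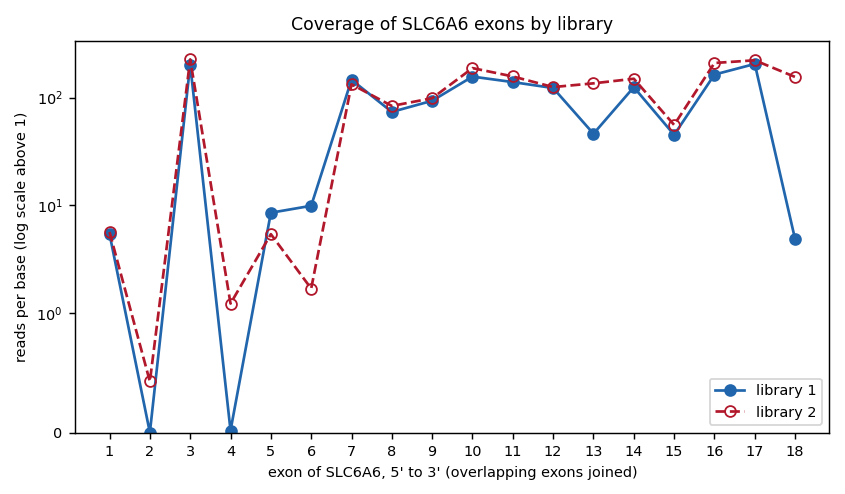
Reads per base over each exon of SLC6A6 from 5' to 3' in library 1 (filled) and library 2 (open), on an axis that is logarithmic above 1. The libraries run together over most exons and part widely at exon 18, the last, with 4.82 and 155 reads per base. They also differ at exon 13, with 46.1 and 135, and at some exons of low coverage such as exon 6, with 9.88 and 1.68.

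Outside the start sites, H3K27ac peaks lay within several of the genes. SLC6A6 had 13 and 7 such peaks in replicates 1 and 2, SLC43A2 had 5 and 6, and SLC7A5 had 5 and 2. SLC1A2, listed at 0 and marked by H3K27me3 at its start, also had 5 and 2. SLC38A2, which had the highest FPKM, had 0 in both, but H3K27ac covered 35.7% and 8.32% of its body. Its peaks all lay within 1 kb of one of its 13 annotated start sites. These counts were not scaled for gene length. Peaks inside a gene may belong to other genes, and their contacts were not analysed here.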

How the data were processed

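The 2 RNA-seq libraries, and 2 replicates each of H3K4me3, H3K27ac and H3K27me3 ChIP-seq, were used, and the input and HiChIP data were left out. RNA reads were mapped by the authors with HISAT2, and they deposited StringTie 1.3.3 transcript tables with FPKM, TPM and coverage, whose coordinates are those of GENCODE 27 on GRCh38, while the methods name hg19. ChIP reads were placed on hg19 with Bowtie2, peaks were called per replicate with MACS2, and the authors deposited the limits of each peak with no score or other value. Versions of HISAT2, Bowtie2 and MACS2 are not given in the sources used here.

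FPKM was summed per gene, and Ensembl identifiers, stripped of their version, linked genes to GENCODE 44 on GRCh37, which gave start sites. No RNA-seq coordinate was combined with the peaks. A peak counted if at least 1 bp lay within 1000 bp of a TSS. The principal TSS is that of the canonical transcript. Reads per base are coverage summed over transcripts, and the read length of 150 bases was inferred from the commonest totals of bases per gene. Python 3.11.15, numpy 2.4.6, pandas 2.3.3 and matplotlib 3.10.9 were used, and peak overlap was checked on simulated data. With 1 condition no test was made, and genes are not replicates. The text names all 37 members and, of other lists, the 3 genes of highest FPKM, known partners, and markers counted or at 0. Some markers, partners and sequences are not reported here. Members, classes and lists were chosen with earlier results of these data known. Replicate 1 of each mark carries no number in its label and was numbered by accession order. Alternatives covered the FPKM level, pseudocount, unit, transcript choice, class membership, window, TSS, peak width, overlap and each replicate.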

Additional observations from a re-analysis of the deposited data

How the results depend on the processing

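Of the alternative values for 9 results, 66 stayed within 1.5 times the count or within 1 SD of the value given and 11 did not. The cause was not tested beyond the setting itself. The count of apical genes at FPKM 1 in both libraries, 1, was 3 at FPKM 0.1, 0 at FPKM 5 and 0 without SLC1A1 and SLC15A2. The ubiquitous minus apical difference in median log2(FPKM + 1) of 4.06 was 7.04 with a pseudocount of 0.1, 3.57 over members with a mean FPKM of at least 0.1 and 5.41 with TPM, always with the ubiquitous class higher. The count of apical genes with H3K4me3, 2, was 7 with a peak in either replicate, 1 without SLC1A1 and SLC15A2, and 3 to 6 with 1 replicate left out. The count with H3K27ac, 1, was 2 with a peak in either replicate and 1 to 2 with 1 replicate left out. The counts for H3K27me3, 4 apical and 0 ubiquitous, were the same under every alternative tried. No paired analysis was possible because no groups were compared and the results come from no test. The absence of peak scores limits what could be detected, and values under the FPKM of 3 reads rest on very few reads.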

Other observations

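Among 20 further amino acid and peptide transporters, 6 reached FPKM 1 in both libraries and 10 were listed at 0. The shares over all protein-coding genes were 58.8% and 19.6%. SLC1A5, the glutamine exchanger of many growing cells, had 90.1 and 115, a range that overlaps that of SLC38A2. SLC38A10 had 45.1 and 42.1 and SLC15A4, a lysosomal peptide and histidine carrier, had 15.7 and 16.2. SLC7A11, the cystine-glutamate exchanger that pairs with SLC3A2, had 2.31 and 2.82. TMEM27, an accessory protein of SLC6A19 in the kidney brush border, had 0.117 and 0.258.

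All 11 genes of the amino acid response were at FPKM 1 or more in both libraries, against 58.8% of protein-coding genes. The 3 highest were ATF4, the transcription factor of this response, with 163 and 160, SHMT2, a mitochondrial enzyme of serine and glycine metabolism, with 67.9 and 63.9, and PHGDH, which starts serine synthesis, with 50.6 and 41.3. With 1 condition, no change in these genes could be measured.

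Other marker lists were low or mixed. The share of all protein-coding genes at FPKM 1 or more in both libraries was 58.8%. Of 6 epithelial markers 4 were at this level, with KRT8 at 179 and 184, KRT19 at 123 and 123, and KRT18 at 68.0 and 44.2. CLDN4 had 44.4 and 0.406, and CDH1, the cadherin of epithelial junctions, had 0.210 and 0.283, with peaks of all 3 marks at its start sites in both replicates. Of 5 podocyte markers SYNPO and PODXL passed, and of 4 endothelial and immune matched markers CD68 did, at 42.5 and 36.8, while VWF and PTPRC were listed at 0.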
